A study of Homo sapiens with 27 samples.

Results

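The genes described here encode subunits of the 5 complexes of the mitochondrial respiratory chain. They were chosen by the form of their symbols (NDUFA, NDUFB, NDUFC, NDUFS and NDUFV genes, SDH genes, UQCR genes, COX5 to COX8 genes and ATP5 genes), with pseudogenes left out and 1 probe kept per gene, the probe with the highest mean signal over the arrays. This gave 78 genes of the 20046 genes that the arrays represent with a probe of 1 symbol. Complex I (NADH dehydrogenase) has 35 of them, complex II (succinate dehydrogenase) 3, complex III (cytochrome bc1) 8, complex IV (cytochrome c oxidase) 14 and complex V (ATP synthase) 18. The symbols fit the label with 1 exception, ATP5IF1, which encodes the inhibitor protein of the ATP synthase and not a subunit.

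The study followed HuES6, a human embryonic stem cell line, on 27 bead arrays while it differentiated towards heart muscle, and asked whether WNT signalling has to be inhibited partway through. In the arm with the WNT inhibitor IWP-2 (its dose is given in µM without a number), cells of time course 1 received the compound on days 2 and 3, and those of time course 2 a day earlier, on days 1 and 2. This arm was sampled on days 3, 4, 5, 6 and 8 in both time courses and on day 2 in time course 2. The arm without inhibitor was sampled on days 1, 2, 3, 4, 5, 6 and 8 in both time courses, and undifferentiated cells on day 0 served as the common start. All differentiating cells, those without inhibitor included, were of this 1 line, were replated on Matrigel in serum-free medium, and received BMP4 at 1 ng/ml, FGF2 at 10 ng/ml and CHIR00921 (spelled as in the labels) at 1 µM over the first 24 hours. Insulin was given on day 0 and left out from day 1. Each day and arm thus has 2 arrays, 1 per time course, except IWP-2 day 2 with 1 array. Nothing in the labels says that days or time courses were separate cultures, so p-values reflect only how far these arrays scatter, and part of that scatter may be technical. The IWP-2 arrays of days 3 and 6 in time course 1 also carry the label of another series. The arrays detected between 16424 and 19784 probes, and mean signals lay between 293.1 and 349.5 except on the dimmest array, IWP-2 day 8 of time course 2, at 225.2.

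Complexes I and II feed electrons from NADH and succinate into the chain, complex III passes them to cytochrome c, and complex IV hands them to oxygen. The proton gradient that complexes I, III and IV build across the inner membrane drives the ATP synthase. Heart muscle cells are packed with mitochondria and depend on this chain, whereas pluripotent stem cells rely more on glycolysis. IWP-2 blocks the enzyme Porcupine and thereby the secretion of WNT proteins. Some complex IV subunits exist as a widely expressed form and a form restricted to heart and skeletal muscle or to testis.

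Many nuclear genes of the chain are known to carry sites for the transcription factors NRF1 and GABPA in their promoters. The 250 bases upstream of the annotated start were searched on both strands in the 65 subunit genes for which the RefSeq table (GRCh38.p14) held a promoter. At least 1 NRF1 motif, in either of the overlapping forms GCGCNTGCG and GCGCANGCG, was present in 22 of them (33.8%), against 12.8% of all 15843 genes with a promoter. The second of these forms was added after the data had been seen, and the first alone also gave 22 genes (33.8%), against 11.2% of all genes. The ETS motif CCGGAAG, which GABPA binds, was present in 17 (26.2%), against 14% of all genes. The estrogen related receptor motif TCAAGGTCA was in 0 of the 65, against 0.303% of all genes, and the MEF2 motifs TATTTATA and TATTTTTA were in 1 (1.54%), against 3.54%. A match describes letters in a window and does not show binding. The promoters below belong to the genes with the largest differences on days 6 and 8 in complexes I, II, IV and V and to the 1 gene that moved the other way, COX6B2. They are given 5′ to 3′ on the gene's strand, and capitals mark matches to either NRF1 form.
NDUFA6 (complex I, chr22:42090773-42091022, minus strand): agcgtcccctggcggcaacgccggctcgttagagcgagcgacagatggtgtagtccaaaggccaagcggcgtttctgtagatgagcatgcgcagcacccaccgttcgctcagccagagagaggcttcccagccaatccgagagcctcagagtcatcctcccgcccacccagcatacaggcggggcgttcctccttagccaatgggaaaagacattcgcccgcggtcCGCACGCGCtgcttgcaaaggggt
SDHA (complex II, chr5:218070-218319, plus strand): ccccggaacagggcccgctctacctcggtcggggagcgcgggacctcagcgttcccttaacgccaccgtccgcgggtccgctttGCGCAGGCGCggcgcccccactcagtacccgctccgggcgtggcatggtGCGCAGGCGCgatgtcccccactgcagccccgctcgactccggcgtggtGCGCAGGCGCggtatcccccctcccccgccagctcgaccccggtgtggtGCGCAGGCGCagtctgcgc
COX6A2 (complex IV, chr16:31428361-31428610, minus strand): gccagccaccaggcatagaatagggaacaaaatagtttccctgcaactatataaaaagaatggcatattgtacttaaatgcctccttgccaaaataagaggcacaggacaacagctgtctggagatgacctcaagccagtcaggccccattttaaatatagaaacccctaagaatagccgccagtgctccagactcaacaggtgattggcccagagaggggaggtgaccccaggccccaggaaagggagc
COX6B2 (complex IV, chr19:55354720-55354969, minus strand): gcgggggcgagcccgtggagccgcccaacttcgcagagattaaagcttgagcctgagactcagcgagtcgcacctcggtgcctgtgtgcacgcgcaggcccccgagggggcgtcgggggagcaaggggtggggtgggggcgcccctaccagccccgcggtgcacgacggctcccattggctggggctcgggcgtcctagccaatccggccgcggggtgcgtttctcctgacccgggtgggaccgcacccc
ATP5MC1 (complex V, chr17:48892537-48892786, plus strand): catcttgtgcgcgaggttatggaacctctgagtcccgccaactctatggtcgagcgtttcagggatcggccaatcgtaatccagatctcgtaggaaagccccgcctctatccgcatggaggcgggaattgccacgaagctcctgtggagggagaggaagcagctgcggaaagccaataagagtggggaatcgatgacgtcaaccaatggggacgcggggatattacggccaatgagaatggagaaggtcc
The SDHA promoter holds 4 copies of GCGCAGGCGC, which begin at positions -166, -117, -68 and -19 from the start and match the first form on the minus strand and the second on the plus strand. NDUFA6 has 1 match, at position -24, and the windows of COX6A2, COX6B2 and ATP5MC1 have 0. The genes that differed most were thus of both kinds, with and without a match.

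Of the 78 genes, 74 were detected above background (detection p under 0.01) on at least 2 arrays and were tested, and 65 were detected on all 27. COX7A1, COX7B2 and COX8C were detected on 0 arrays and NDUFS6 on 1 array. COX6A2 and COX6B2 entered the test only through the arm in which each was high. All tests were limma fits over 13572 genes, with a mean for every combination of day and arm and a block for time course. Adjusted p-values are Benjamini-Hochberg values over those 13572 genes, with 0.05 as the threshold, and differences are on the log2 scale. Levels are log2 signals after quantile normalization and cannot be compared between probes.

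On days 6 and 8, after the inhibitor window, respiratory chain genes were broadly higher in the IWP-2 arm than without inhibitor. Of the 74 tested, 60 were higher and 1 lower, against 17.0% higher and 18.0% lower of all genes tested. The median difference was 0.715 for the 74 genes and -0.018 for all genes. All 65 genes detected on every array had a positive difference, between 0.16 and 2.57, and 56 of these 65 passed the test. In 18 genes called higher the difference was at least 1, a doubling, against 6.00% of all genes. All 4 IWP-2 arrays lay above all 4 arrays without inhibitor in 52 of the 74 genes, against 12.9% of all genes, and below them in 1, against 12.0%. The difference was positive in both time courses for 68 genes and negative in both for 2, with medians of 0.553 (time course 1) and 0.867 (time course 2). No share of all genes was computed for these sign counts.

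**Figure D1:**
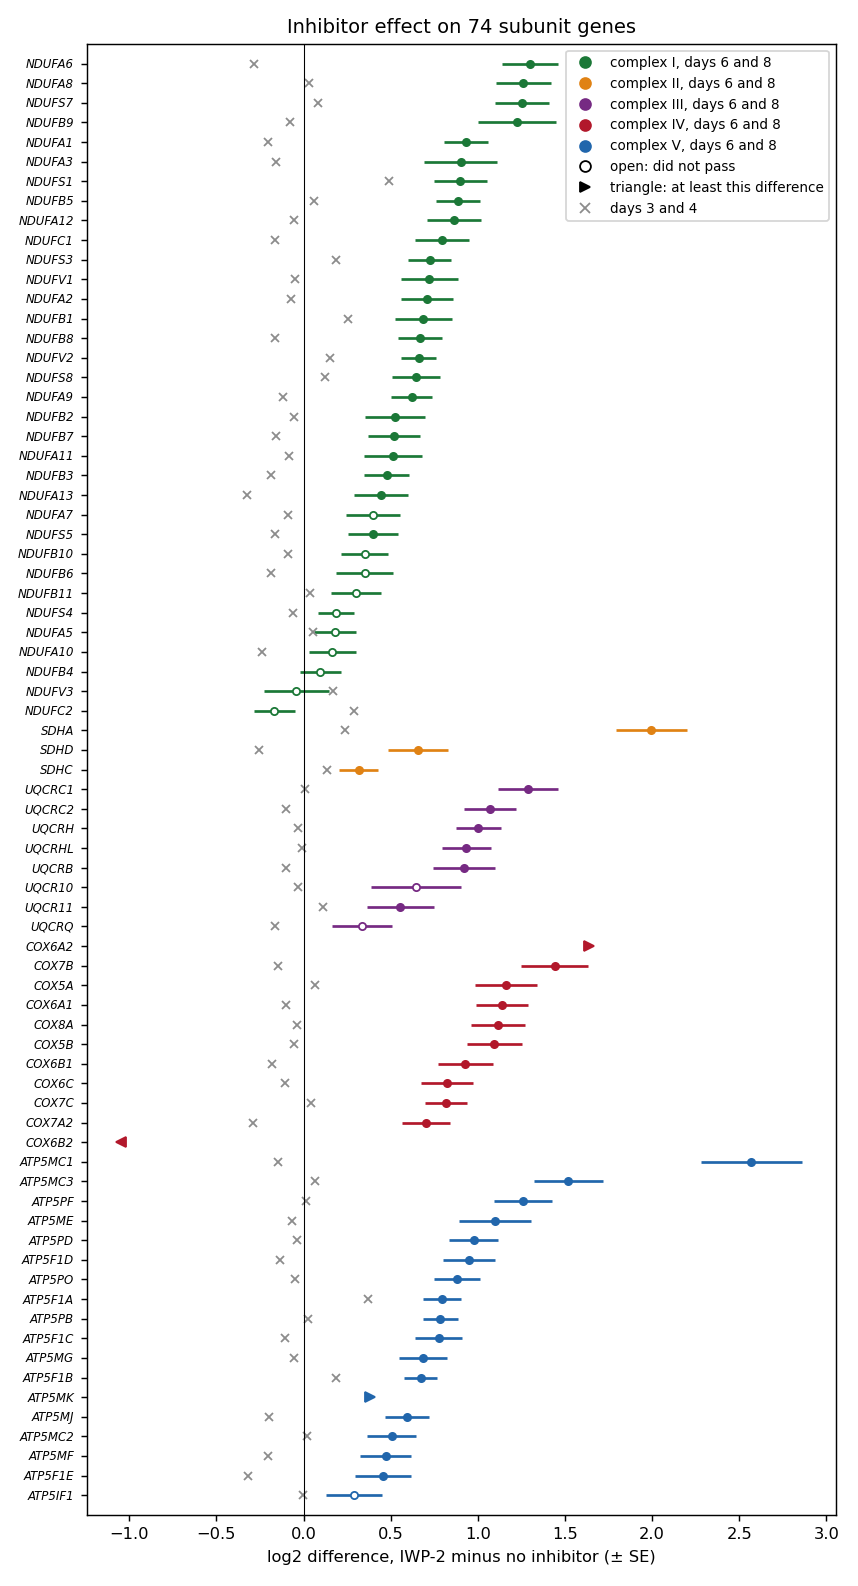
Difference between IWP-2 and no inhibitor on days 6 and 8 (log2, x axis; bars, standard error) for each of the 74 tested genes, grouped by complex on the y axis; filled points passed the test, open ones did not, and grey crosses give the difference on days 3 and 4. Triangles, with no error bar, mark the 3 genes with an arm not above background (COX6A2, COX6B2 and ATP5MK) at the smallest difference their bound allows, and genes with such an arm on days 3 and 4 have no cross. NDUFB4, whose level without inhibitor was not above background either, has no bound and is drawn at its fitted value. Nearly all points lie to the right of 0 while the crosses scatter around it. The points run from ATP5MC1 at 2.57 down to the 3 genes to the left of 0, of which COX6B2 passed.

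These arrays read bulk RNA, in which fewer cells of a type and less RNA per cell cannot be told apart. On days 6 and 8, heart muscle markers also gave more summed signal with IWP-2. All 10 of 10 cardiomyocyte markers were detected on each of the 4 IWP-2 arrays of days 6 and 8, with a summed scanner signal between 63658 and 82571. Without inhibitor 4 to 6 of the 10 were detected, with sums between 4053 and 6192, and NKX2-5, ACTN2 and TTN were not above background. Of the 8 fibroblast and smooth muscle markers, 5 to 6 were detected with IWP-2 (sums from 13338 to 24815) and 8 without it (sums from 47854 to 58634), with POSTN and PRRX1 not above background in the IWP-2 arm. Of the 6 endoderm markers, 1 to 6 were detected with IWP-2 (568 to 1660) and 6 without it (1347 to 8857). Of the 4 endothelium markers, 3 to 4 were detected with IWP-2 (477 to 1461) and 4 without it (1540 to 2187). Of the 5 pluripotent cell markers, 2 were detected with IWP-2 (693 to 4510) and 2 to 3 without it (1688 to 4186). The part of these marker differences in the subunits' differences was not tested.

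Complex I oxidizes NADH and is the largest of the complexes. Of its 34 tested genes, 24 were higher with IWP-2 on days 6 and 8 and 0 lower, with a median difference of 0.634. NDUFA6, an accessory subunit, led the group. Its level was 9.72 and 10.04 on days 6 and 8 with IWP-2 in time course 1 and 9.92 and 10.17 in time course 2, against 8.48, 8.58, 8.91 and 8.70 on the same days without inhibitor. The 4 IWP-2 arrays were all higher, and the difference was 1.30 ± 0.16 (SE, n = 4 arrays each, limma adjusted p = 1.33e-05). NDUFA8, another accessory subunit, read 11.34 and 11.75 with IWP-2 in time course 1 and 12.07 and 11.88 in time course 2, against 10.42, 10.59, 10.59 and 10.39 without inhibitor. Here too the arms did not overlap, with a difference of 1.26 ± 0.16 (adjusted p = 1.48e-05). The 10 genes of complex I that did not pass had differences between -0.17 in NDUFC2 and 0.40 in NDUFA7.

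Complex II is both a citrate cycle enzyme and an entry point of the chain. All 3 of its genes on the arrays, SDHA, SDHC and SDHD, were higher with IWP-2 (SDHB was not analysed here). SDHA, the flavin-carrying catalytic subunit, read 9.52 and 10.39 on days 6 and 8 with IWP-2 in time course 1 and 10.29 and 10.39 in time course 2, against 8.19, 8.13, 8.14 and 8.15 without inhibitor. Its level without inhibitor was nearly flat over these arrays, and the difference was 2.00 ± 0.21 (adjusted p = 2.08e-06). A second SDHA probe gave 2.17, though signal from near-identical SDHA pseudogene copies could not be separated here. The membrane anchor SDHD was higher by 0.66 ± 0.17 (adjusted p = 0.00652). The other anchor, SDHC, read 8.80 and 8.91 with IWP-2 in time course 1 and 9.21 and 9.18 in time course 2, against 8.33, 8.41, 9.20 and 8.90 without inhibitor. Its arms overlapped, and its difference of 0.32 ± 0.11 (adjusted p = 0.0383) lost the call in 11 of 19 alternative settings.

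Complex III had 6 of 8 genes higher, with a median difference of 0.927, and the remaining UQCR10 and UQCRQ at 0.65 and 0.34. The core protein UQCRC1 read 10.52 and 11.25 on days 6 and 8 with IWP-2 in time course 1 and 11.10 and 10.85 in time course 2, against 9.64, 9.75, 9.64 and 9.53 without inhibitor. Its difference was 1.29 ± 0.17 (adjusted p = 2.74e-05), and that of the second core protein, UQCRC2, was 1.07 ± 0.15 (adjusted p = 3.65e-05). The arms did not overlap for either core protein. UQCRH and its near-identical copy UQCRHL, whose signals may not be separable, differed by 1.00 and 0.93. UQCR11 passed in the main fit at 0.56 ± 0.19 (adjusted p = 0.0322) and lost the call in 10 of 19 alternatives.

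Complex IV had the largest median difference of the 5 complexes, 1.095, with 10 of its 11 tested genes higher and 1 lower. COX6A2, the heart and skeletal muscle form of subunit VIa, was detected on 5 arrays, all with IWP-2: those of days 6 and 8 in both time courses and that of day 5 in time course 2. Its level on days 6 and 8 with IWP-2 was 4.96 and 6.45 in time course 1 and 7.04 and 7.28 in time course 2, against 4.31, 4.22, 4.18 and 4.22 without inhibitor, where it was not well above background. COX6A2 entered the test only through the IWP-2 arm, so no p-value is given for it. It was at least 3.11-fold higher with IWP-2. The medians of complex IV and of all 74 genes stay at 1.095 and 0.715 when genes with only a bound are set to it. COX6A1, the widely expressed form, was detected in both arms and was also higher, by 1.14 ± 0.15 (adjusted p = 2.13e-05). It read 10.65 and 11.29 with IWP-2 in time course 1 and 11.39 and 11.45 in time course 2, against 9.93, 10.06, 10.27 and 9.97 without inhibitor. Both forms of this subunit were thus higher, the muscle form from below detection.

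COX6B2, the testis form of subunit VIb, was the 1 tested gene of the 74 that was called lower with IWP-2. It was detected on 4 arrays, all without inhibitor, on days 6 and 8 of both time courses. Its other probe was not detected on at least 2 arrays and was not tested, so the call rests on 1 probe. Its level was 4.23 and 4.18 on days 6 and 8 with IWP-2 in time course 1 and 4.24 and 4.19 in time course 2, not well above background, against 5.03, 5.82, 4.99 and 7.91 without inhibitor. COX6B2 entered the test only through the arm without inhibitor, so no p-value is given for it. It was at least 2.07-fold lower with IWP-2. This bound rests on the time course 2 array of day 8 without inhibitor and is 1.31-fold without it. COX6B1, the widely expressed form, went the other way and was higher by 0.93 ± 0.16 (adjusted p = 0.000215), with 12.25, 12.63, 12.70 and 12.73 in the IWP-2 arm against 11.52, 11.76, 11.90 and 11.42 without inhibitor.

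For the other paired subunits of complex IV, only the widely expressed form could be measured. COX7B was higher by 1.44 ± 0.19 (adjusted p = 2.69e-05), with levels of 10.61, 11.04, 11.13 and 11.26 in the IWP-2 arm against 9.70, 9.63, 9.62 and 9.33 without inhibitor. COX8A was higher with IWP-2 by 1.11 ± 0.16 (adjusted p = 4.03e-05) and COX7A2 by 0.70 ± 0.14 (adjusted p = 0.00087). The muscle form COX7A1 stayed between 4.20 and 4.47 on all 27 arrays, COX7B2 between 4.16 and 4.51 and COX8C between 4.15 and 4.51, and none of these was detected on any array. The pair NDUFA4 and NDUFA4L2 was not analysed here.

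The ATP synthase had 17 of 18 genes higher and 0 lower, with a median difference of 0.779, and the gene that did not pass was the inhibitor protein ATP5IF1 (0.29 ± 0.16, adjusted p = 0.177). The membrane ring of the enzyme is made of subunit c, which 3 genes encode as the same mature protein. ATP5MC1 had the largest difference of all 74 genes. On days 6 and 8 it read 10.11 and 10.81 with IWP-2 in time course 1 and 11.12 and 10.94 in time course 2, against 7.90, 8.31, 8.43 and 8.07 without inhibitor. The difference was 2.57 ± 0.29 (adjusted p = 4.76e-06), and a second probe gave 3.26. ATP5MC3 read 7.19, 7.63, 7.93 and 7.90 in the IWP-2 arm against 5.72, 5.93, 6.29 and 6.63 without inhibitor, a difference of 1.52 ± 0.20 (adjusted p = 2.03e-05). ATP5MC2 had the smallest difference of the 3, at 0.51 ± 0.14 (adjusted p = 0.00926). The 3 genes for subunit c were all higher with IWP-2, by unequal amounts. ATP5PF, the stalk subunit F6, was higher by 1.26 ± 0.17 (adjusted p = 2.48e-05), and ATP5F1E, the epsilon subunit, by 0.46 ± 0.16 (adjusted p = 0.0346), a call that 11 of 19 alternatives lost.

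**Figure D2:**
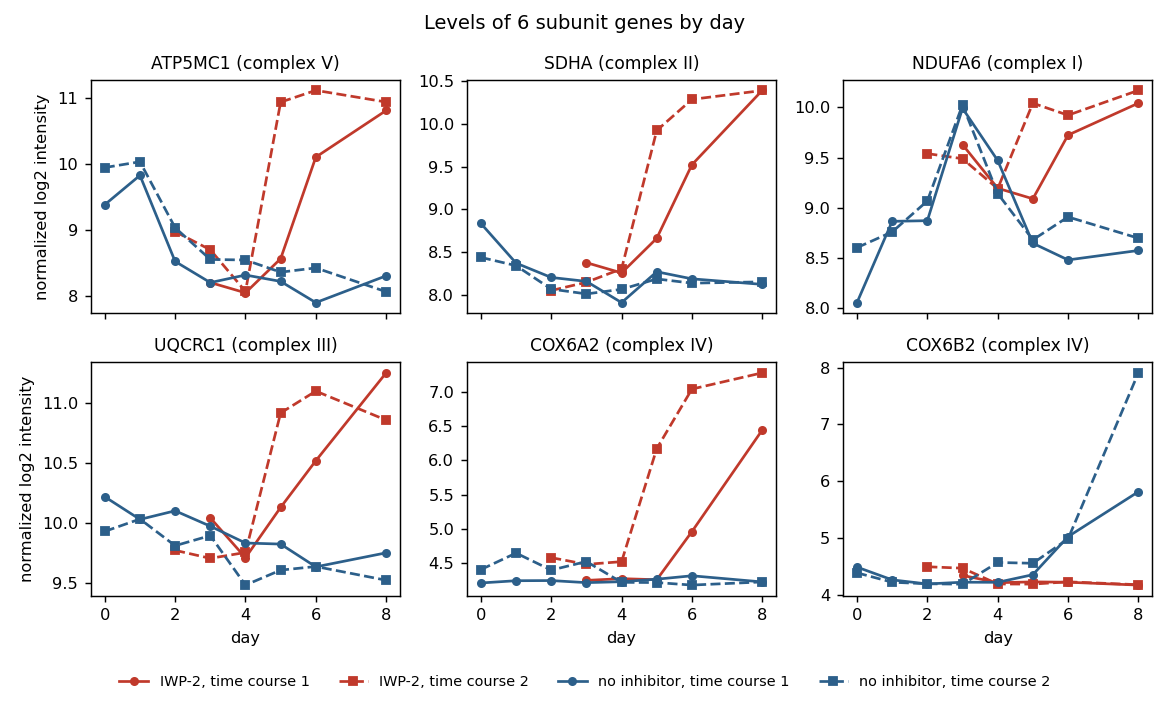
Normalized log2 signal (y axis) by day (x axis) for ATP5MC1, SDHA, NDUFA6, UQCRC1, COX6A2 and COX6B2, 1 point per array, with IWP-2 in red and no inhibitor in blue, time course 1 as circles and time course 2 as squares; each panel has its own y axis. The arms separate from day 5 or 6 on, COX6B2 in the opposite direction from the rest, and NDUFA6 is also high on day 3, between 9.49 and 10.03 in both arms.

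A second probe was available for some genes and did not always give the same call. On days 6 and 8, 26 further probes of 21 genes gave the same call as the first in 19 cases, the other side of the threshold in 6 and the other sign in 1. NDUFA10 (0.83 against 0.16 by the first probe), NDUFB6 (0.44 against 0.35) and both further UQCR10 probes (0.52 and 0.77 against 0.65) passed where the first did not. For UQCRB (0.35 against 0.92) and ATP5ME (0.47 against 1.10), a further probe missed the threshold. The first NDUFV3 probe gave -0.04 and the second 0.65, which passed.

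Scaling the arrays by their medians instead of quantiles moved the median of all genes to -0.168 and gave 49 higher and 2 lower, and the chain's median lay 0.728 above that of all genes under this scaling and 0.733 under the main one. Under it 28.5% of the genes called were higher, against 48.5% in the main fit. A fit on 1 difference per time course, added after seeing the data, called 23 higher. Without the dim IWP-2 array of day 8, 57 genes were higher with a median of 0.736.

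No subunit gene passed the test early. On days 3 and 4, at the end of the inhibitor window or just after it, 0 of the 74 genes were higher and 0 lower by limma's adjusted p, against 2.08% higher and 2.29% lower of all genes (4.37% in either direction). At an unadjusted p under 0.05 there were 3, named here after their values were seen. The matching share of all genes is not given, so this count is not read as an effect on the subunits. The 3 were ATP5F1A at 0.37 ± 0.11 (adjusted p = 0.077), NDUFS1 at 0.49 ± 0.15 (adjusted p = 0.0913) and NDUFC2 at 0.29 ± 0.12 (adjusted p = 0.209). ATP5F1A, the alpha subunit, passed with an offset of 50, with a variance trend and with array weights, and NDUFS1, an iron-sulfur subunit, with array weights. The median of the 74 genes was -0.054 and turned to 0.042 under median scaling. SDHA, for example, read 8.38 and 8.26 on days 3 and 4 with IWP-2 in time course 1 and 8.15 and 8.31 in time course 2, against 8.16, 7.91, 8.01 and 8.07 without inhibitor. Cardiomyocyte markers on these days were detected in 4 to 10 of 10 with IWP-2, with summed signals between 2290 and 32740, and in 5 of 10 without inhibitor, with sums between 2002 and 7645.

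The change of the inhibitor's effect between the early and late days was itself tested. It was larger on days 6 and 8 than on days 3 and 4 in 49 of 74 genes and smaller in 1, against 9.10% and 9.20% of all genes, with a median change of 0.774. It was larger in 10 of 11 genes of complex IV, 14 of 18 of complex V, 2 of 3 of complex II, 5 of 8 of complex III and 18 of 34 of complex I. The number fell to 31 under median scaling, where the median of all genes shifted to -0.311, and to 28 with 1 difference per time course.

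Day by day, the onset of the difference was seen on day 5 in time course 2 and on day 6 in time course 1. On day 5 of time course 2, whose IWP-2 window was a day earlier, 70 of 74 genes were higher with IWP-2, by a median of 0.703, and 17 by at least 1. On day 5 of time course 1, 43 were higher, by a median of 0.067, and 0 by at least 1. On day 6 the median was 0.485 in time course 1 (66 of 74 higher) and 0.802 in time course 2 (72 higher), and on day 8 it was 0.717 (69 higher) and 1.01 (71 higher). Of all genes, 49.3% (time course 1) and 47.9% (time course 2) were higher with IWP-2 on day 5. The shares were 48.5% and 50.4% on day 6, and 47.5% and 47.9% on day 8. No such share was computed for differences of at least 1 on single days. On day 4 the medians were -0.092 and -0.131. The median of all genes stayed between -0.029 and 0.03 on each of these days. Summed cardiomyocyte markers on day 5 were 85151 with IWP-2 in time course 2 and 50625 in time course 1, against 5360 and 7220 without inhibitor. In time course 1 the markers were thus already apart on day 5, where the subunit median was 0.067. On day 4 of time course 2 the sums were 32740 with IWP-2 and 7645 without inhibitor, at a subunit median of -0.131. In time course 1 they were 8504 and 7080 on day 4. The part of the markers was not tested.

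**Figure D3:**
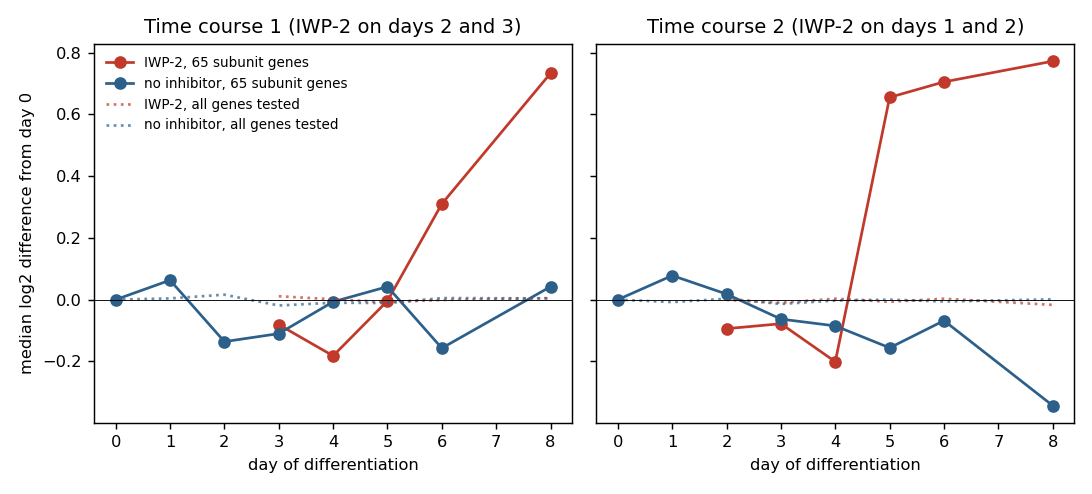
Median level of the 65 genes detected on all 27 arrays, minus the day 0 array of the same time course (log2, y axis), by day (x axis), with 1 panel per time course and 1 line per arm; dotted lines give the median of all genes tested. The IWP-2 line of time course 2 stands at 0.655 on day 5 and that of time course 1 at 0.31 on day 6. They end at 0.772 and 0.733, while the lines without inhibitor end at -0.343 and 0.042.

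ATP5MC1 shows the step at the level of 1 gene. With IWP-2 it read 8.20, 8.05, 8.57, 10.11 and 10.81 on days 3, 4, 5, 6 and 8 of time course 1, and 8.70, 8.07, 10.94, 11.12 and 10.94 on the same days of time course 2. Without inhibitor it read 8.22, 7.90 and 8.31 on days 5, 6 and 8 of time course 1, and 8.36, 8.43 and 8.07 in time course 2. On day 5 the time course 2 array had thus reached its late level with IWP-2 and the time course 1 array had not. COX6A2 gave the same order on day 5 with IWP-2, with 4.26 (time course 1) and 6.17 (time course 2).

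Whether the 2 time courses, and with them the 2 inhibitor windows, differed was tested over days 3 to 8 with an interaction term. Window and time course cannot be told apart. The inhibitor's effect was higher in time course 2 in 0 of 74 genes and lower in 0, against 0.0958% and 0.383% of all genes (0.479% in either direction). The median of this difference was 0.194, 63 of the 74 genes had a positive value, and 13 had an unadjusted p under 0.05. Matching shares of all genes are not given for these counts, so they are not read as an effect on the subunits. The term averages days 3 to 8, so the contrast of the time courses on day 5 alone was not tested. Leaving out the IWP-2 array of day 3 in either time course gave 1 gene higher.

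**Figure D4:**
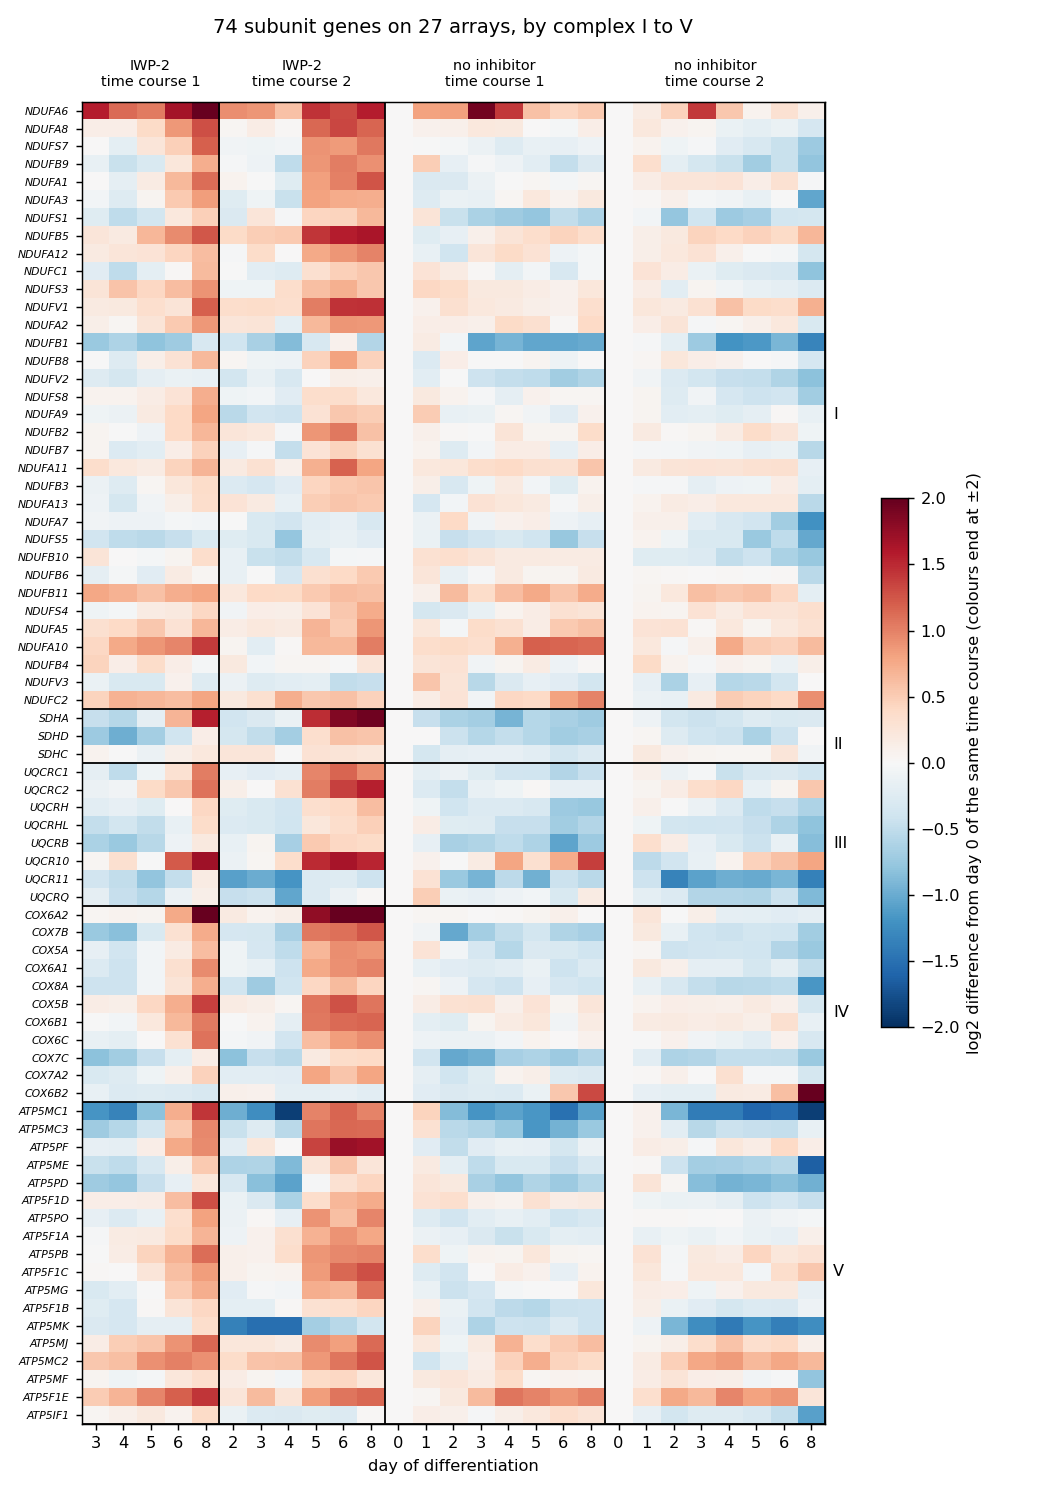
Level of each of the 74 subunit genes (rows, by complex) on each of the 27 arrays (columns, by arm, time course and day), as the log2 difference from the day 0 array of the same time course, with colours ending at 2 and -2. Most rows are red on the IWP-2 arrays of day 8, and of days 5 and 6 in time course 2; the late arrays without inhibitor are pale or blue in most rows, and COX6B2 is red there.

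Set against undifferentiated cells, the arms moved apart from a common start. On day 8 with IWP-2, 49 of 74 genes were higher than on day 0 and 0 lower, against 22.3% higher and 22.5% lower of all genes (44.8% in either direction), with a median of 0.700. On day 8 without inhibitor, 8 were higher and 14 lower than on day 0, against 21.7% and 21.5% of all genes, with a median of -0.183. The comparisons share the day 0 arrays. By complex, the counts higher with IWP-2 were 22 of 34 in complex I, 1 of 3 in complex II, 4 of 8 in complex III, 9 of 11 in complex IV and 13 of 18 in complex V. Without inhibitor, the counts higher and lower were 4 and 4 in complex I, 0 and 0 in complex II, 1 and 4 in complex III, 1 and 2 in complex IV, and 2 and 4 in complex V. The counts depended on single arrays. With IWP-2, 32 were higher without the day 0 array of time course 2, and 25 under median scaling. Without inhibitor, 3 were lower when the day 8 array of time course 2 was left out, 23 when that of time course 1 was, and 9 when the time course 2 array of day 0 was. The number higher was 3 in both of the last cases and 5 without the time course 1 array of day 0. The median without inhibitor turned to 0.034 without the day 8 array of time course 2 and was -0.354 without that of time course 1.

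Several genes stood clearly above day 0 on day 8 with IWP-2. NDUFA6 read 10.04 and 10.17 on day 8 with IWP-2, against 8.06 and 8.60 on day 0, a rise of 1.78 ± 0.23 (n = 2 arrays each, adjusted p = 1.18e-05). Without inhibitor on day 8 it read 8.58 and 8.70, 0.31 above day 0, which did not pass. Its path was not a simple climb, since both arms stood at 9.49 to 10.03 on day 3 already. SDHA rose by 1.75 ± 0.29 with IWP-2 (adjusted p = 0.000125) against day 0 levels of 8.84 and 8.44. Its difference from day 0 without inhibitor was -0.50, which did not pass. COX6A2, again without a p-value, was at least 3.77-fold higher on day 8 with IWP-2 than on day 0. ATP5PF rose by 1.31 ± 0.24 (adjusted p = 0.000279), with 12.50 and 13.10 on day 8 with IWP-2 against 11.55 and 11.42 on day 0.

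Other genes were lower without inhibitor than on day 0. ATP5MC1 read 10.81 and 10.94 on day 8 with IWP-2, against 9.39 and 9.95 on day 0, a rise of 1.21 ± 0.41 (adjusted p = 0.0228). On day 8 without inhibitor it read 8.31 and 8.07 and fell by 1.48 on the log2 scale (SE 0.41, adjusted p = 0.00729). It was below day 0 on day 4 in both arms, at 8.05 and 8.07 with IWP-2 and 8.32 and 8.55 without inhibitor. COX8A read 11.83 and 11.19 on day 8 without inhibitor and fell by 0.78 against day 0 (adjusted p = 0.00854). NDUFB1, an accessory subunit of complex I, was not well above background on day 8 without inhibitor (4.57 and 4.36), against 5.58 and 5.69 on day 0, and was at least 1.81-fold lower (adjusted p = 0.000654). On day 8 with IWP-2 it read 5.26 and 5.11, below day 0 as well.

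A few genes rose without inhibitor. COX6B2, again without a p-value, was at least 3.77-fold higher on day 8 without inhibitor than on day 0, with 5.82 and 7.91 against 4.50 and 4.39. This bound is 1.83-fold without the time course 2 array of day 8 and 7.77-fold without that of time course 1. NDUFC2, a membrane subunit of complex I, rose in both arms, by 0.62 ± 0.16 with IWP-2 (adjusted p = 0.00519) and by 0.96 ± 0.16 without inhibitor (adjusted p = 0.000191). It read 5.23 and 5.76 on day 8 with IWP-2, 5.42 and 6.23 on day 8 without inhibitor, and 4.44 and 5.30 on day 0. The day 0 array of time course 1 was not above background for NDUFC2. Its call with IWP-2 was lost in 4 of 13 alternatives and that without inhibitor in 1 of 13. UQCR10 read 8.33 and 9.20 on day 8 with IWP-2 and 8.01 and 8.46 without inhibitor, against 6.63 and 7.67 on day 0. Its rises of 1.61 ± 0.36 (adjusted p = 0.00171) and 1.09 ± 0.36 (adjusted p = 0.0228) rest on a probe whose day 0 arrays differed by over 1, and another probe gave 0.09 without inhibitor, which did not pass. ATP5F1E rose by 1.29 with IWP-2 and by 0.62 ± 0.23 without inhibitor (adjusted p = 0.0351).

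Further probes also disagreed in part against day 0. Of 26, 8 differed from the first in side or sign with IWP-2 and 8 without inhibitor. For UQCRB without inhibitor, the first probe fell by 0.79 while the other 2 rose by 0.64 and 0.55. A second SDHC probe was lower on day 8 than on day 0 in both arms, with differences of -0.42 with IWP-2 and -1.09 without inhibitor, where the first did not pass. For ATP5MC2, whose first probe rose by 1.09 with IWP-2 and 0.51 without inhibitor, the other 2 passed in neither arm. NDUFA10 rose by 0.88 without inhibitor by its first probe and by 0.18 by its second, which did not pass. ATP5ME and, with IWP-2, UQCRH and NDUFB3 were the remaining genes whose probes disagreed.

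Early in differentiation the chain changed little. On day 2 without inhibitor, 0 of 74 genes were higher and 2 lower than on day 0, against 7.68% and 6.57% of all genes, with a median of -0.107. UQCR11 read 5.84 and 5.97 on day 2 against 6.58 and 7.31 on day 0 and fell by 1.04 ± 0.27 (adjusted p = 0.0156). COX7C read 12.30 and 12.54 on day 2 against 13.32 and 13.15 on day 0 and fell by 0.81 ± 0.17 (adjusted p = 0.00369). By day 8 without inhibitor these 2 genes were still lower than on day 0, by 0.94 and 0.66 on the log2 scale. Leaving out the array of time course 2 on day 0 or on day 2 left 1 of the 2.

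Other genes of mitochondrial energy metabolism were taken from lists of pathway genes. For comparison, 17.0% of all genes were higher with IWP-2 on days 6 and 8 and 18.0% lower. Of 14 tested genes of the citrate cycle and pyruvate dehydrogenase, which supply the chain with NADH and succinate, 13 were higher with IWP-2 on days 6 and 8 and 0 lower, with a median of 1.019. IDH3A, the catalytic subunit of NAD-dependent isocitrate dehydrogenase, read 7.99 and 8.50 with IWP-2 in time course 1 and 8.58 and 9.21 in time course 2, against 4.92, 5.30, 5.53 and 5.65 without inhibitor (difference 3.22 ± 0.28, adjusted p = 4.29e-07). DLAT and PDHA1, of the pyruvate dehydrogenase complex, differed by 2.28 and 1.54. Of 15 fatty acid oxidation genes, 11 were higher and 0 lower (median 0.59), led by the electron carrier ETFB (1.78), the muscle form of carnitine palmitoyltransferase CPT1B (1.15) and the thiolase subunit HADHB (1.02). Of 5 further chain genes outside the symbol rule, 4 were higher, among them cytochrome c itself, CYCS, at 1.53 ± 0.40 (adjusted p = 0.00627), CYC1 at 1.08 and COX4I1 at 0.82.

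Lists one step removed from the chain moved less uniformly on days 6 and 8, where 17.0% of all genes were higher and 18.0% lower. Of 39 assembly factors, which build the complexes and are not part of them, 20 were higher and 2 lower (median 0.389). NDUFAF4, which assembles complex I, was higher by 1.67, the copper chaperone COX17 by 1.60 and UQCC1 by 0.95, while COX19 (-0.86) and TMEM70 (-0.60, a call lost in 14 of 19 alternatives) were lower. Of 76 mitochondrial ribosome genes, 28 were higher and 0 lower (median 0.266), with MRPL41 (1.31), MRPL34 (1.30) and MRPL2 (1.13) in front. These medians lie above that of all genes, -0.018, and below the 0.715 of the subunits.

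**Figure D5:**
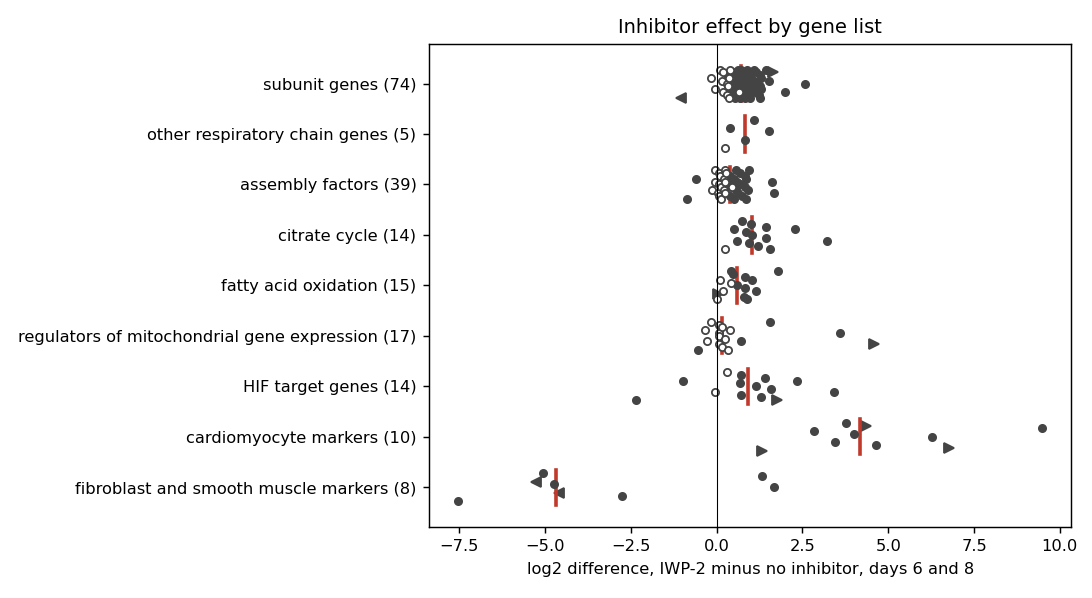
Differences between IWP-2 and no inhibitor on days 6 and 8 (log2, x axis) for the subunit genes, pathway lists and marker lists (rows, with the number of genes tested); each point is a gene, filled where it passed the test, triangles are genes with an arm not above background, drawn at their bound, and the red line marks the median. The citrate cycle genes (median 1.019) lie furthest right of the metabolic lists shown, the regulators centre near 0 (0.148) with a few genes far to the right, and the cardiomyocyte markers have a median of 4.18.

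Of 17 regulators of mitochondrial gene expression, 4 were higher and 1 lower on days 6 and 8, with a median of 0.148. The shares of all genes were 17.0% higher and 18.0% lower, so the number higher is not read as a result about this list. PPARGC1A encodes PGC-1 alpha, a coactivator of genes for mitochondrial biogenesis. It read 9.45 and 9.79 on days 6 and 8 with IWP-2 in time course 1 and 9.28 and 9.06 in time course 2, against 4.26, 4.39, 4.26 and 4.51 without inhibitor, where it was not well above background. Without inhibitor it was not detected on days 3 and 4 either, and on day 0 it was detected on 1 of 2 arrays, so no p-value is given. On days 6 and 8 it was at least 24.2-fold higher with IWP-2. Before that, with IWP-2, it stood at 4.97 on day 4 and 8.24 on day 5 in time course 1, and at 7.95 and 9.90 on the same days in time course 2. Summed cardiomyocyte markers were also high on these arrays, at 50625 with IWP-2 on day 5 of time course 1, against 7220 without inhibitor, and at 32740 with IWP-2 on day 4 of time course 2, against 7645 without inhibitor; their part was not tested. The estrogen related receptors, nuclear receptors that PGC-1 alpha coactivates, were also higher with IWP-2, ESRRG by 3.59 ± 0.34 (adjusted p = 9.84e-07) and ESRRA by 1.55 ± 0.22 (adjusted p = 4.2e-05). GABPB1, the partner of GABPA, was lower by 0.56 (adjusted p = 0.0135). NRF1 and GABPA, named here because their motifs were searched and not for their size, did not pass, at -0.16 ± 0.14 (adjusted p = 0.423) and 0.39 ± 0.19 (adjusted p = 0.131), and the NRF1 probe read between 4.28 and 5.06 on all arrays, close to background. Of the 49 subunit genes called higher that have a promoter in the table, 18 hold an NRF1 motif and 16 the ETS motif, 30 either. Of the 12 that did not pass, 2 hold an NRF1 motif and 1 the ETS motif, 3 either. The shares of all genes with a promoter are 12.8% and 14%, and none was computed for either motif. Among the 12, NDUFA10, NDUFB6, NDUFV3 and UQCR10, all without a motif, passed by a further probe. ATP5ME, called higher and with an NRF1 motif, missed the threshold by a further probe. A link between motif and call was not tested.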

How the data were processed

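The deposited table holds, for each of 27 Illumina bead arrays, an intensity per probe (average signal) and a detection p-value, per the file headers, with 47323 probes. GenomeStudio is the only tool that the submitters' processing notes name, without a version. A second table of the authors' processed intensity values, on a linear scale with array medians of 6.876 (time course 1) and 4.63 (time course 2) and values below 0, has 1 shared median per time course and so appears normalized within each; the method is not stated. It served only as an alternative (floor 1).

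The members, lists and tests were chosen with earlier results of these data known. From the deposited intensity values, limma 3.58.1 (R 4.3.3) computed normexp background correction from the detection p-values (neqc, offset 16), quantile normalization and log2 values. Of the probes, 30113 were annotated with 1 gene, 8 with several and 17202 with none listed; 23933 were detected (detection p under 0.01) on at least 2 arrays, 18435 of them with 1 gene, which gave 13572 genes with 1 probe each (highest mean). lmFit and eBayes fitted 1 mean per day and arm with the time course as a block, and Benjamini-Hochberg values were taken over all genes. The window comparison added a term for inhibitor by time course. Time course numbers pair the arrays: deviations from the group means correlated between 0.123 and 0.802 over the 78 pairs of 13 groups within a time course, all above 0.1. No 2 arrays were identical. The number of arrays limits the precision, and the procedure was tested on simulated data. A group not detected on any array has a bound only: the fold is taken against the higher of its own level and the lowest detected level per array.

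Named were the fixed isoform sets, the SDH genes, per complex the members with the largest differences past the test (the 2 largest each way on days 6 and 8, the largest each way otherwise), members with disagreeing probes, and up to 3 of the largest per other list. Alternatives covered the block, scaling, the authors' values, filters, offset, probe choice, variance model, array weights, the arrays entering the fit and leaving out each array. Promoters came from RefSeq (GRCh38.p14), matched by symbol for 65 of 78 members, with 13 without an entry.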

Additional observations from a re-analysis of the deposited data

Results flagged for a closer look

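The inhibitor's effect differed between days 3 and 4 and days 6 and 8, by a direct test of that difference, in 50 of the 74 respiratory chain genes, against 18.3% of all genes. No group holds more than 2 arrays, too few to look for single arrays that stand apart. Among the named genes, the late effect minus the early one (log2) was 2.72 for ATP5MC1, 1.451 for ATP5MC3, 1.244 for ATP5PF and 0.772 for ATP5F1E. In complexes I to III it was 1.58 for NDUFA6, 1.23 for NDUFA8, 1.76 for SDHA, 0.912 for SDHD, 1.282 for UQCRC1 and 1.17 for UQCRC2. In the rest of complex IV it was 1.585 for COX7B, 1.241 for COX6A1, 1.151 for COX8A, 1.112 for COX6B1, 0.993 for COX7A2 and 0.775 for COX7C. COX6A2 and COX6B2 also passed, COX6B2 as the 1 gene of the 50 in the other direction. Neither was detected in either arm on days 3 and 4 or, on days 6 and 8, in 1 of the arms, and each was tested only through the arm in which it was high, so no size is given for them.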

How the results depend on the processing

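Of the gene-level results, 4187 of 4628 alternative values kept direction and side of the threshold, 439 kept direction and lost the call, and 2 reversed: with the mean of all probes, UQCRB on day 8 without inhibitor against day 0 turned to 0.134, and MRPL43, a mitochondrial ribosome gene that was lower by 0.43 on day 8 with IWP-2 against day 0, turned to 0.244. The probes of UQCRB disagree, as given above; the cause was not tested for MRPL43. Counts of higher and lower subunit genes moved as follows. Median scaling gave 2 lower on days 6 and 8, 31 higher and 2 lower for the late minus the early effect, and 25 higher and 2 lower for day 8 with IWP-2 against day 0. One difference per time course (chosen after seeing the data) gave 23 higher on days 6 and 8 and 28 for the late minus the early effect, with fewer degrees of freedom. On days 3 and 4, 1 was higher with an offset of 50, 1 with a trended robust variance and 2 with array weights. With only genes detected on all arrays, where COX6B2 drops out, 0 were lower in both of the first comparisons, and 5 were higher on day 8 without inhibitor against day 0. That last count was also 5 with array weights, and 4 higher and 4 lower with only the arrays compared. The authors' values gave 1 lower on day 8 with IWP-2 against day 0. Without the replicate block that pairs the arrays, 3 were higher on day 8 without inhibitor against day 0, 1 was lower on day 2, 54 higher and 1 lower on days 6 and 8, 38 and 1 for the late minus the early effect, 35 and 0 on day 8 with IWP-2 against day 0, and 0 and 0 on days 3 and 4; the window comparison had no such fit.

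Leaving out 1 array at a time gave 49 to 66 higher and 1 lower on days 6 and 8, 0 and 0 on days 3 and 4, 40 to 56 higher and 1 to 2 lower for the late minus the early effect (2 without the time course 2 array of day 3 or of day 6 in the arm without inhibitor), 32 to 38 higher and 0 lower on day 8 with IWP-2 against day 0, 3 to 8 higher and 3 to 23 lower on day 8 without inhibitor, 0 higher and 1 to 2 lower on day 2, and 0 to 1 higher for the windows. Over all genes, 1 difference per time course called 828 higher and 815 lower on days 6 and 8, against 2304 and 2449 in the main fit. Genes with an arm not above background, such as COX6A2 and COX6B2, have bounds only, and 2 arrays per group limit every comparison.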

Other observations

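Genes that hypoxia-inducible factors are known to switch on moved in both directions. Of 14 tested, 10 were higher and 2 lower with IWP-2 on days 6 and 8 (median 0.925), against 17.0% and 18.0% of all genes, and 0 were higher and 2 lower on days 3 and 4, against 2.08% and 2.29%. ADM, a secreted peptide hormone, differed by 3.42 ± 0.45 (limma adjusted p = 2.12e-05), and BNIP3, a mitophagy receptor, by 2.33 ± 0.34 (adjusted p = 6.79e-05). The glucose transporter SLC2A1 (-0.99, a call lost in 10 of 19 alternatives) and the collagen crosslinking enzyme LOX (-2.35) were lower. LOX was already lower on days 3 and 4 (-2.37), as was VEGFA (-1.15), which on days 6 and 8 was higher by 0.71. The VEGFA calls were lost in 8 of 18 alternatives on days 3 and 4 and in 13 of 18 on days 6 and 8.

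Against day 0, the shares of all genes called higher and lower were 22.3% and 22.5% on day 8 with IWP-2 and 21.7% and 21.5% on day 8 without inhibitor. Of 76 mitochondrial ribosome genes, 8 were higher and 20 lower on day 8 with IWP-2, a share lower close to that of all genes, and 2 were higher and 40 lower on day 8 without inhibitor. The largest falls without inhibitor were in MRPS34 (-1.57), MRPL12 (-1.24) and MRPS12 (-1.23). Of 17 regulators, 2 were higher and 9 lower on day 8 with IWP-2, and 0 were higher and 10 lower without inhibitor. The mitochondrial helicase TWNK differed from day 0 by -1.29 with IWP-2 and by -1.47 without inhibitor, and PPRC1, a relative of PPARGC1A, by -1.86 with IWP-2 and by -1.44 without inhibitor. Of 39 assembly factors, 13 were higher and 3 lower on day 8 with IWP-2, and 5 were higher and 9 lower without inhibitor, with NDUFAF4 at -1.53 and COX17 at -1.31. Of 14 citrate cycle genes, 11 were higher and 0 lower with IWP-2, and 1 was higher and 2 lower without inhibitor. Of 15 fatty acid oxidation genes, 13 were higher and 0 lower with IWP-2, and 4 were higher and 1 lower without inhibitor. All these comparisons share the day 0 arrays.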
